A study of Homo sapiens with 4 samples.

Results

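Signal transducers and activators of transcription (STAT) and interferon regulatory factors (IRF) are transcription factors that carry interferon and cytokine signals to the nucleus. Of the 8 genes considered, STAT2, STAT3, STAT6, IRF1, IRF2, IRF3, IRF7 and IRF9, 7 had probe sets annotated to that symbol alone, out of 19775 genes named in this way, and STAT2 was not analysed here. These were 12 probe sets of 54675 in the table: 4 for STAT3, 2 each for STAT6 and IRF1, and 1 each for IRF2, IRF3, IRF7 and IRF9. A further probe set annotated to both RNF31 and IRF9 was not used. The cells were HCT116, a human line derived from a colon carcinoma, and the labels name a wt and a wt/GFP line. For each of these 2 lines, 1 Affymetrix array was made from a monolayer, in which cells lie flat on the dish, and 1 from spheroids, in which they form round aggregates, giving 4 arrays. Culture time, the origin of the GFP line and the number of cultures behind an array are not stated in the labels. The question was how expression in spheroids differs from that in monolayers.

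Cytokine and interferon receptors activate Janus kinases (JAK), which phosphorylate STAT proteins. STAT3 mainly serves the interleukin-6 family through the receptor subunit IL6ST, and STAT6 serves interleukin-4 and interleukin-13. IRF9 joins STAT2 and a further STAT protein in the complex ISGF3, which binds the interferon-stimulated response element (ISRE) of target genes after type I interferon. IRF3 and IRF7 are activated by kinases downstream of nucleic acid sensors and switch on interferon genes. IRF1 activates genes of the interferon-gamma response, and IRF2 binds the same element and was first described as its antagonist.

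Promoter sequences from RefSeq (GRCh38.p14), from 250 bases before to 50 bases after each start, were given for 5 of the 8 genes: STAT2, STAT3, STAT6, IRF1 and IRF9. For STAT6 the sequence, chr12:57110240-57110539, belongs to a start inside the span of the gene, chr12:57095408-57111362. The bases before the outer end of the STAT6 gene were thus not searched. The gamma-activated sequence (GAS), the letters TTCNNNGAA that STAT dimers can bind, was found once each in IRF1 and IRF9, and in 7.66% of the 35116 promoters of the table. The ISRE core, which is GAAA, any 2 bases and GAAA again, searched on both strands, was in none of the 5 and in 3.57% of all promoters. The core of the hypoxia response element, ACGTG on either strand, was in IRF1 and IRF9 and in 21.4% of all promoters. Both GAS matches are shown because they are the STAT-type letters in the promoters of these factors; capitals mark the motif matches.
IRF9 (chr14:24161182-24161230, + strand, GRCh38.p14): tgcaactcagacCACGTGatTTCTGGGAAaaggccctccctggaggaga
IRF1 (chr5:132490869-132490917, - strand, GRCh38.p14): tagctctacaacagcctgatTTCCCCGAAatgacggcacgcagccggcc
In IRF9 the GAS letters lie 63 to 55 bases before the start. The capitals CACGTG hold 2 overlapping ACGTG matches, 1 on each strand. In IRF1 the GAS letters lie 124 to 116 bases before the start, and its ACGTG match lies 30 to 34 bases after it, outside the window shown. A match of letters is not a binding site, and nothing was measured on binding here.

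In spheroids, IRF9, STAT3, IRF2 and STAT6 rose. The other genes, IRF7, IRF1 and IRF3, did not pass the test at the probe set that stood for the gene. Values were compared as log2(signal + 14) with limma, with culture and cell line as terms over the 4 arrays, and a gene was called at a Benjamini-Hochberg adjusted p under 0.05 over 14349 genes. Thus 4 of 7 genes were called higher, where 30.6% of all genes tested were, and 0 were called lower, where 18.5% of all genes were; calls in either direction made up 49.1% of all genes. The median log2 change was 0.66 for these 7 genes and 0.23 for all genes. The change had the same sign in both lines for 7 of 7 genes, against 80.8% of all genes tested. Both spheroid arrays lay above both monolayer arrays in 6 of the 7, all but IRF3, against 47.1% of all genes. Every error below is the moderated standard error (SE), which rests mainly on genes of like brightness, because the design leaves 1 residual degree of freedom.

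All arrays shared a trimmed mean of 500.1, but their median signals differed, at 48.0 to 48.8 for monolayers against 67.3 to 68.4 for spheroids. Spiked-in hybridisation controls read 0.39 (wt) and 0.79 (wt/GFP) log2 units higher with spheroids than with monolayers. For ACTB the 3' to 5' signal ratio was 1.30 to 1.32 for monolayers against 1.73 to 1.76 for spheroids, while that of GAPDH was 0.882 to 0.897 against 0.868 to 0.951. The part of these differences in the results below was not tested, except that 3 other scalings of the arrays are given. Of 12 colon epithelial markers 10 lay above the filter on dim probe sets, with EPCAM at 19611 to 29302, whereas CDX1 and GPA33 did not. Some of the 10 were dim, with CDX2 at 33.1 to 81.6, VIL1 at 16.1 to 90.7 and LGALS4 at 13.9 to 62.5. The filter corresponds to a signal of 30.6 and kept 32768 of the 54613 probe sets that are not controls. Of the 9 immune markers named on the array 4 lay above it, of 7 fibroblast markers 3 and of 4 endothelial markers 1. Summed over all named markers, above the filter or not, the immune signal was 276 to 367 in monolayers and 594 to 601 in spheroids. Without LYZ, the lysozyme gene, it was 267 to 335 and 272 to 304. The fibroblast sum was 455 to 479 in monolayers and 2440 to 4075 in spheroids, and without COL1A1, a collagen gene, 117 to 175 and 165 to 295. The endothelial sum was 138 to 164 and 247 to 278. No marker was listed at 0, and PTPRC, the pan-leukocyte marker, reached at most 42.2. In whole cultures, a change in the share of cells that express a gene cannot be told apart from a change in RNA per cell.

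**Figure D1:**
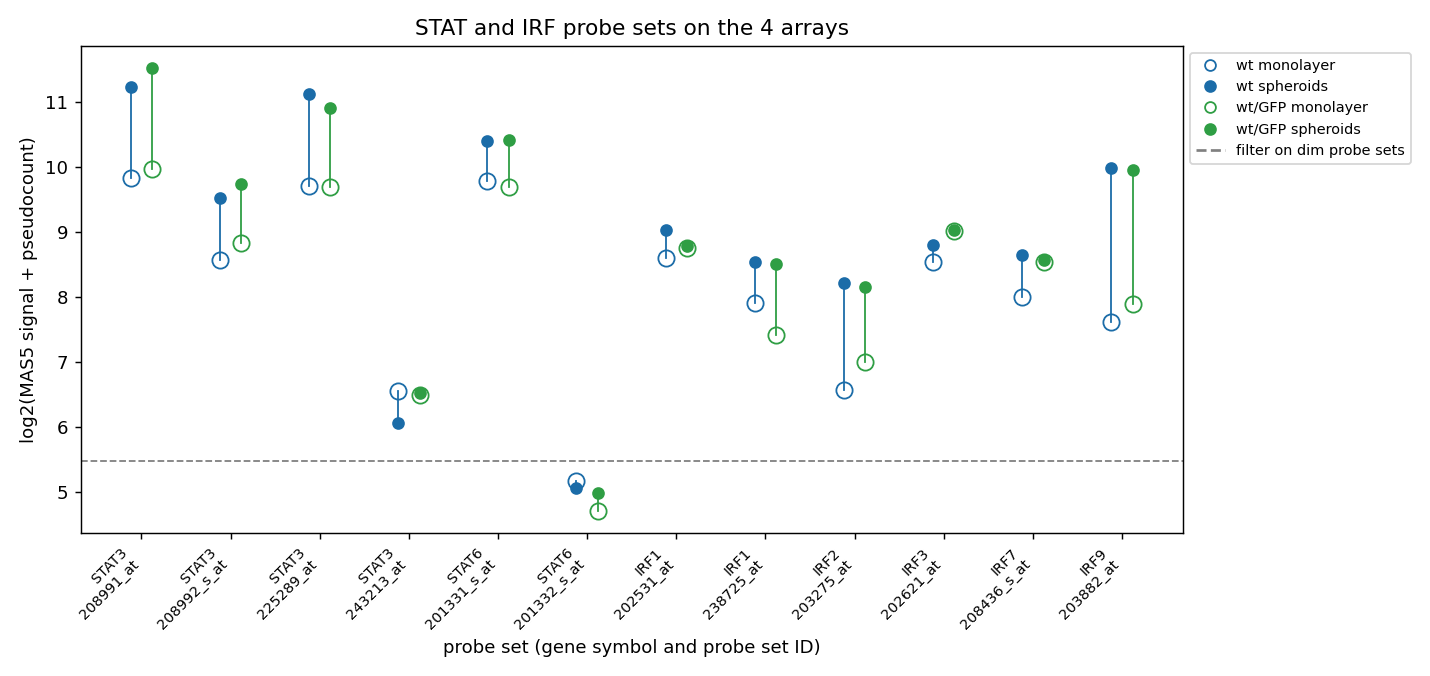
Log2(MAS5 signal + pseudocount) of the 12 STAT and IRF probe sets on the vertical axis; open circles are monolayers, filled circles spheroids, blue wt and green wt/GFP, with a line joining the arrays of a line. IRF9 and the first 3 STAT3 probe sets separate the cultures in both lines, whereas the wt/GFP circles of IRF1 (202531_at), IRF3 and IRF7 nearly coincide.

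IRF9, the DNA-binding subunit of ISGF3, had the largest change of the 7 genes. Its gene lies at chr14:24161265-24166565 (GRCh38.p14, RefSeq). Its signal was 181 in the wt monolayer, 998 in wt spheroids, 223 in the wt/GFP monolayer and 971 in wt/GFP spheroids. Both spheroid arrays thus lay far above both monolayer arrays, and the spheroid values of the 2 lines were close to each other. The signal ratio was 5.53-fold in wt and 4.35-fold in wt/GFP. The log2 change was 2.22 ± 0.19 (SE, 2 arrays per culture, limma adjusted p = 1.20e-10), which ranked 259 of 14349 genes from the top. Quantile normalization gave 1.97, centring on the median 1.83 and the hybridisation controls as scale 1.63, and IRF9 was called under each.

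STAT3, the main STAT of the interleukin-6 family, was measured by 4 probe sets, and its gene lies at chr17:42313324-42388442. The brightest, 208991_at, read 892 in the wt monolayer, 2392 in wt spheroids, 983 in the wt/GFP monolayer and 2914 in wt/GFP spheroids. Its spheroid signal was 2.68-fold and 2.97-fold that of the monolayer in wt and wt/GFP, and the log2 change was 1.48 ± 0.13 (limma adjusted p = 1.71e-10). The second, 225289_at, read 816 and 2212 in wt and 811 and 1901 in wt/GFP, monolayer first. The third, 208992_s_at, read 363 and 718 in wt and 442 and 841 in wt/GFP. These 3 probe sets had both spheroid arrays above both monolayer arrays, with log2 changes of 1.48, 1.32 and 0.93. The fourth, 243213_at, was dim and did not follow them, with 79.4 and 52.6 in wt and 75.5 and 77.8 in wt/GFP, so its cultures overlapped. Tested alone over 32768 probe sets, the first 3 were called and 243213_at was not (limma adjusted p = 0.713). The gene was called under all 4 scalings of the arrays, with a log2 change of 0.89 (limma adjusted p = 0.0334) after scaling to the hybridisation controls, the lowest of the 4.

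IRF2, which can repress as well as activate through the ISRE, had the third largest change. Its gene lies at chr4:184387729-184474550, and 1 probe set measured it. The signal was 80.9 in the wt monolayer, 283 in wt spheroids, 114 in the wt/GFP monolayer and 271 in wt/GFP spheroids. The cultures did not overlap, and the ratio was 3.50-fold in wt and 2.39-fold in wt/GFP. IRF2 rose by 1.40 ± 0.29 log2 units (limma adjusted p = 0.000207). Its SE was the largest of the 7 genes. The call was kept after quantile normalization and median centring and lost after scaling to the hybridisation controls, at a log2 change of 0.81 (limma adjusted p = 0.0506).

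STAT6, the STAT of interleukin-4 and interleukin-13, rose least of the called genes. Its gene lies at chr12:57095408-57111362. The probe set 201331_s_at read 868 in the wt monolayer, 1334 in wt spheroids, 813 in the wt/GFP monolayer and 1340 in wt/GFP spheroids. The cultures did not overlap, and the log2 change of 0.66 ± 0.14 (limma adjusted p = 0.000219) was made up of 0.61 for wt and 0.71 for wt/GFP. The call depended on the scaling: the log2 change was 0.57 after quantile normalization and still called, 0.27 after median centring (limma adjusted p = 0.112), and 0.070 after scaling to the hybridisation controls (limma adjusted p = 0.907). It was also lost without a trend in the moderation (limma adjusted p = 0.0561). The second STAT6 probe set, 201332_s_at, lay below the filter with signals of 12.2 to 21.7 on the 4 arrays and was not tested.

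**Figure D2:**
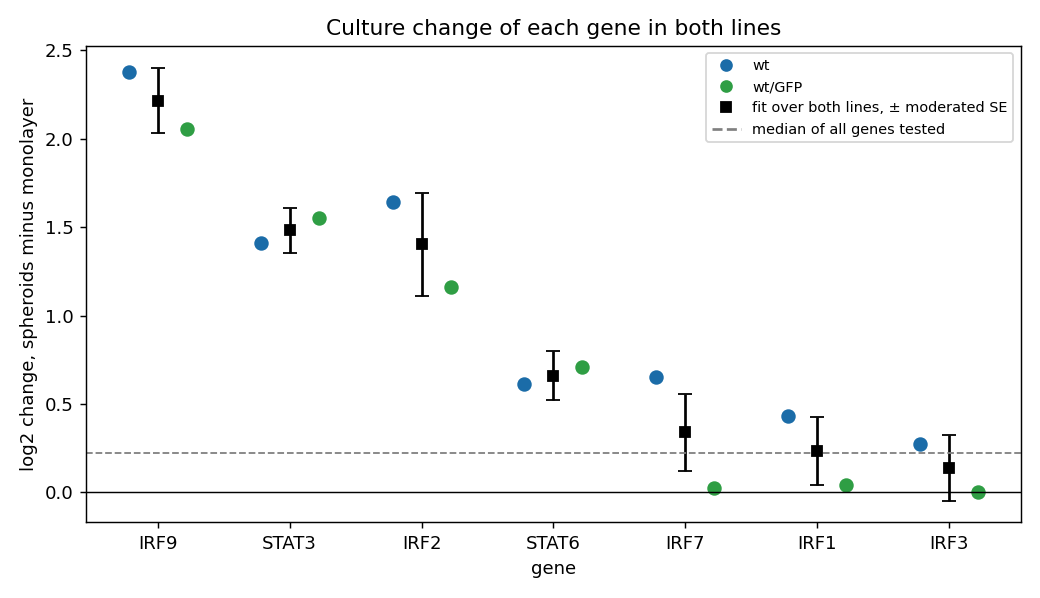
Log2 change from monolayer to spheroids for the 7 genes, each at its brightest probe set: circles give wt (blue) and wt/GFP (green), squares the fit over both lines with its moderated SE, and the dashed line the median of all genes, 0.23. The changes run from 2.22 for IRF9 to 0.14 for IRF3, and in IRF7, IRF1 and IRF3 the wt/GFP value lies near 0.

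IRF7, the inducible amplifier of type I interferon, lies at chr11:612555-615950. Its signal was 241 in the wt monolayer, 387 in wt spheroids, 355 in the wt/GFP monolayer and 363 in wt/GFP spheroids. Spheroids lay above monolayers, but by only 1.02-fold in wt/GFP against 1.61-fold in wt. The log2 change was 0.34 ± 0.22 and did not pass (limma adjusted p = 0.203), with 0.65 in wt and 0.028 in wt/GFP. The difference between the lines was not tested, because 1 array for each line and culture leaves no residual for it.

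IRF3, which is made constantly and is activated by phosphorylation, lies at chr19:49659572-49665857. It read 355 in the wt monolayer, 432 in wt spheroids, 503 in the wt/GFP monolayer and 505 in wt/GFP spheroids. The cultures overlapped, since the wt/GFP monolayer lay above the wt spheroids. The log2 change was 0.14 ± 0.19 (limma adjusted p = 0.565). IRF3 also had the largest difference between lines of the 7 genes, 0.35 ± 0.19 higher in wt/GFP on the log2 scale, which did not pass either (limma adjusted p = 0.796). None of the 7 genes was called between the lines, where 4 of 14349 genes, 0.0279%, were; this comparison was added after the values were seen.

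IRF1, an activator of interferon-gamma response genes, lies at chr5:132481609-132490773, and its 2 probe sets disagreed. The brighter, 202531_at, read 374 in the wt monolayer, 509 in wt spheroids, 415 in the wt/GFP monolayer and 428 in wt/GFP spheroids. Its log2 change was 0.24 ± 0.19 and did not pass (limma adjusted p = 0.326). The dimmer, 238725_at, read 226 and 358 in wt and 156 and 348 in wt/GFP, monolayer first, so the spheroids were 1.59-fold and 2.24-fold higher. Tested alone, 238725_at rose by 0.87 ± 0.23 log2 units (limma adjusted p = 0.00366). With the mean of both probe sets as the value of the gene, the change was 0.55 and was called (limma adjusted p = 0.0218). Whether IRF1 counts as higher in spheroids therefore depends on the probe set.

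Over all 12 probe sets, both spheroid arrays lay above both monolayer arrays in 9, where this held for 38.8% of the 54613 probe sets that are not controls. The cultures overlapped in 3 and spheroids lay below in 0, where 18.6% of all probe sets did. The filter was passed by 11 of the 12, and 7 of these 11 were called higher when each probe set was tested alone, against 25.5% of the probe sets tested, and 0 lower, against 14.6%. The 4 probe sets that passed the filter without a call were 243213_at of STAT3, 202531_at of IRF1 and those of IRF3 and IRF7.

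**Figure D3:**
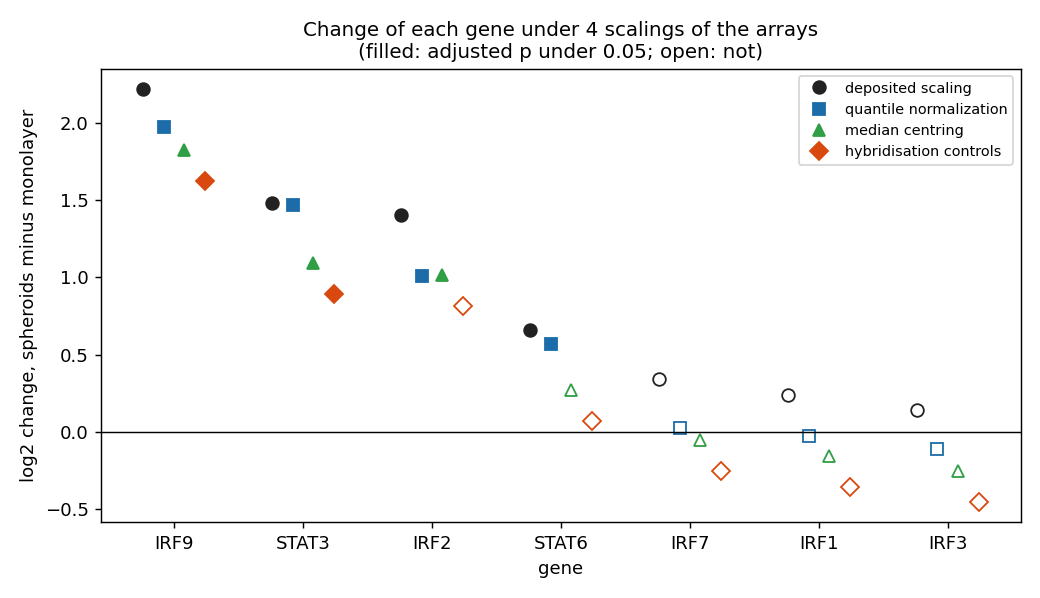
Log2 change of the 7 genes under 4 scalings of the arrays, filled where the limma adjusted p was under 0.05. IRF9 and STAT3 are filled throughout, IRF2 is open only with the hybridisation controls (0.81), STAT6 is open in the last 2 scalings, and IRF7, IRF1 and IRF3 cross 0.

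Every one of the 7 changes had a lower value under the other 3 scalings than under the deposited one, and those of IRF1, IRF3 and IRF7 went below 0. The median of all genes moved in step, from 0.23 with the deposited scaling to 0.019 with quantile normalization, -0.17 with median centring and -0.37 with the hybridisation controls as scale. Relative to the median of all genes with the deposited scaling, IRF9 stood 1.99 higher on the log2 scale, STAT3 1.26, IRF2 1.18 and STAT6 0.44 higher. IRF7 stood 0.12 above that median, IRF1 0.0094 above it and IRF3 at -0.085 from it. The median of the 7 genes was 0.57, 0.27 and 0.070 under these scalings, always above that of all genes.

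The genes whose log2 values, centred over the 4 arrays, lay closest to those of IRF9 were PGGHG, ANKRD22 and SAMD5, at Euclidean distances of 0.0517, 0.0619 and 0.0854. Their log2 changes were 2.34 and 1.99, 2.32 and 2.01, and 2.36 and 2.16 in wt and wt/GFP, where those of IRF9 were 2.38 and 2.06. This likeness covers 4 arrays and describes their levels alone.

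Other genes of the families and pathways came from 11 lists of 159 genes, of which 126 were tested. Of these, 67 were called higher and 8 lower, against 30.6% and 18.5% of all genes tested. Among 6 other STAT and IRF genes tested, STAT4, STAT5B and IRF5 were called, at log2 changes of 1.21 ± 0.34, 0.81 ± 0.32 and 0.66 ± 0.27. STAT5A, IRF4 and IRF8 did not pass, at 0.37, 0.48 and 0.44. None of these 6 was called after scaling to the hybridisation controls, where their median fell from 0.57 to -0.018.

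Ligands were mostly dim: of 16 listed, 7 were tested, and the type I interferon genes IFNA1 and IFNB1 and the interferon-gamma gene IFNG did not pass the filter. Of these 7, 2 relatives of interleukin-6 that signal through IL6ST were called higher, IL11 at 1.65 ± 0.43 and LIF at 0.76 ± 0.14, whereas IL6 had a value of 0.68 and IL22 of 0.66 with no call. After scaling to the hybridisation controls neither ligand was called, IL11 at 1.06 (limma adjusted p = 0.0803) and LIF at 0.17 (limma adjusted p = 0.758). Of 14 receptors, 9 rose and 1 fell, against 30.6% and 18.5% of all genes tested. Their median was 0.65, or 0.057 after scaling to the hybridisation controls. The receptors of LIF and oncostatin M, LIFR and OSMR, rose by 1.85 ± 0.17 and 1.72 ± 0.12 and were called under all 4 scalings. The receptors IL13RA1, which leads to STAT6, and IFNGR1 rose by 1.36 ± 0.13 and 1.21 ± 0.12. Both lost their calls with the hybridisation controls as scale, at 0.77 (limma adjusted p = 0.0705) and 0.62 (limma adjusted p = 0.148). The receptor that fell was IL6R, at -0.76 ± 0.22, a gene outside the naming rule. Of the 4 JAK kinases, JAK1 rose by 0.50 ± 0.12, but its change was -0.091 after scaling to the hybridisation controls. JAK2, JAK3 and TYK2 did not pass with the deposited scaling, at -0.33, 0.68 and 0.15. JAK2 was called lower after quantile normalization, at -0.74 (limma adjusted p = 0.0492). It was also called lower with the hybridisation controls as scale, at -0.92 (limma adjusted p = 0.0322).

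Of 18 inhibitors of JAK-STAT signalling, 6 rose and 3 fell, beside 9 with no call, which is near the 30.6% and 18.5% of all genes. With the hybridisation controls as scale the balance turned, to 0 higher and 5 lower. Their median of 0.31 became -0.076 with median centring and -0.28 with the hybridisation controls as scale. SOCS3, the feedback inhibitor that STAT3 induces, rose by 1.30 ± 0.18, with 1.81 in wt and 0.79 in wt/GFP. SOCS5, SOCS7 and PIAS3 rose by 1.38 ± 0.13, 1.06 ± 0.12 and 1.27 ± 0.17, while SOCS1 had a value of 0.72 with no call (limma adjusted p = 0.0566). The 3 that fell, SOCS2, PIAS2 and PTPN1, at -0.76, -0.64 and -0.92, are named outside the rule. Of 7 corepressors and partners of IRF proteins, 3 rose and 1 fell: IRF2BPL and IRF2BP2, partners of IRF2, rose by 1.35 ± 0.12 and 1.01 ± 0.12, EP300, a histone acetyltransferase, by 0.54 ± 0.19, and NMI fell by 0.77 ± 0.15. IRF2BPL and NMI kept their calls under all 4 scalings.

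Of 14 genes that sense nucleic acids or activate IRF3 and IRF7, 7 rose and 1 fell, against 30.6% and 18.5% of all genes tested. Their median was 0.40, or -0.19 after scaling to the hybridisation controls. IFIH1, a sensor of double-stranded RNA, rose by 2.12 ± 0.25, STING1, the adaptor of the DNA sensing pathway, by 1.39 ± 0.22, and RIGI, another RNA sensor, by 1.20 ± 0.17. CGAS, a DNA sensor, rose by 2.11 ± 0.48. Its monolayer log2 values, 5.96 (wt) and 4.39 (wt/GFP), had a mean below the filter of 5.48. CGAS was thus tested only because its spheroid values were higher, and the 7 that rose include it. IFIH1, CGAS and STING1 were called under all 4 scalings. IRAK1, a kinase upstream of IRF7 and named outside the rule, was the one that fell, at -0.47.

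Target genes were grouped by the factor they are best known for, although many answer to other factors too. The counts below stand beside 30.6% of all genes tested that were called higher and 18.5% called lower. Of 29 ISGF3 targets listed, 24 were tested, and MX1, MX2, IFI44, IFI44L and RSAD2 did not pass the filter. With the deposited scaling 16 of the 24 rose and 0 fell, with a median log2 change of 1.27, and 10 were called higher under all 4 scalings. IFIT5 was called lower after median centring, at -0.64, and with the hybridisation controls as scale, at -0.84. ISG15 was called lower after median centring, at -0.51. The largest changes were those of IFITM1, BST2, IFIT2 and IFI6, of 5.10, 3.60, 2.38 and 2.34. BST2 was below the filter in both monolayers, at log2 values of 4.18 and 4.61, so it was tested only because its spheroid values were high. IFIT2 was below it in the wt monolayer, at 5.21. OAS1 and IFI27, named outside the rule, had monolayer means below the filter and also passed only through their spheroid values. Their monolayer values in wt and wt/GFP were 4.80 and 5.90 for OAS1 and 5.97 and 4.37 for IFI27. The 16 that rose include BST2, OAS1 and IFI27, and the 10 include BST2 and IFI27. IRF1 targets had 7 of 12 higher and 1 lower, with a median of 0.68. GBP2, a guanylate-binding protein, rose by 2.12 ± 0.35, the cytokine IL15 by 2.01 ± 0.20, and NLRC5, an activator of HLA class I genes, by 1.59 ± 0.39, whereas PSMB10, an immunoproteasome subunit, fell by 1.58 ± 0.15. Of 17 STAT3 targets, 13 rose and 1 fell, with a median of 1.03. SERPINA3, an acute phase protease inhibitor, rose by 3.55 ± 0.44 from monolayer values below the filter, and so was tested only through its spheroid values, BCL6, a transcriptional repressor, by 3.48 ± 0.14, FOS by 2.48 ± 0.20 and VEGFA by 2.07 ± 0.12. The target that fell, CCND1, at -0.88, lies outside the rule. Of 7 STAT6 targets, 2 rose, which is near the 30.6% of all genes. They were the chemokine CCL26, at 1.59 ± 0.31, and the receptor IL4R, at 0.89 ± 0.19, while SERPINB3 had a value of 0.80 with no call. IL4R lost its call with the hybridisation controls as scale, at 0.29 (limma adjusted p = 0.513), whereas CCL26 kept its call. After scaling to the hybridisation controls the medians of the ISGF3, IRF1, STAT3 and STAT6 targets were 0.68, 0.087, 0.44 and 0.13.

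**Figure D4:**
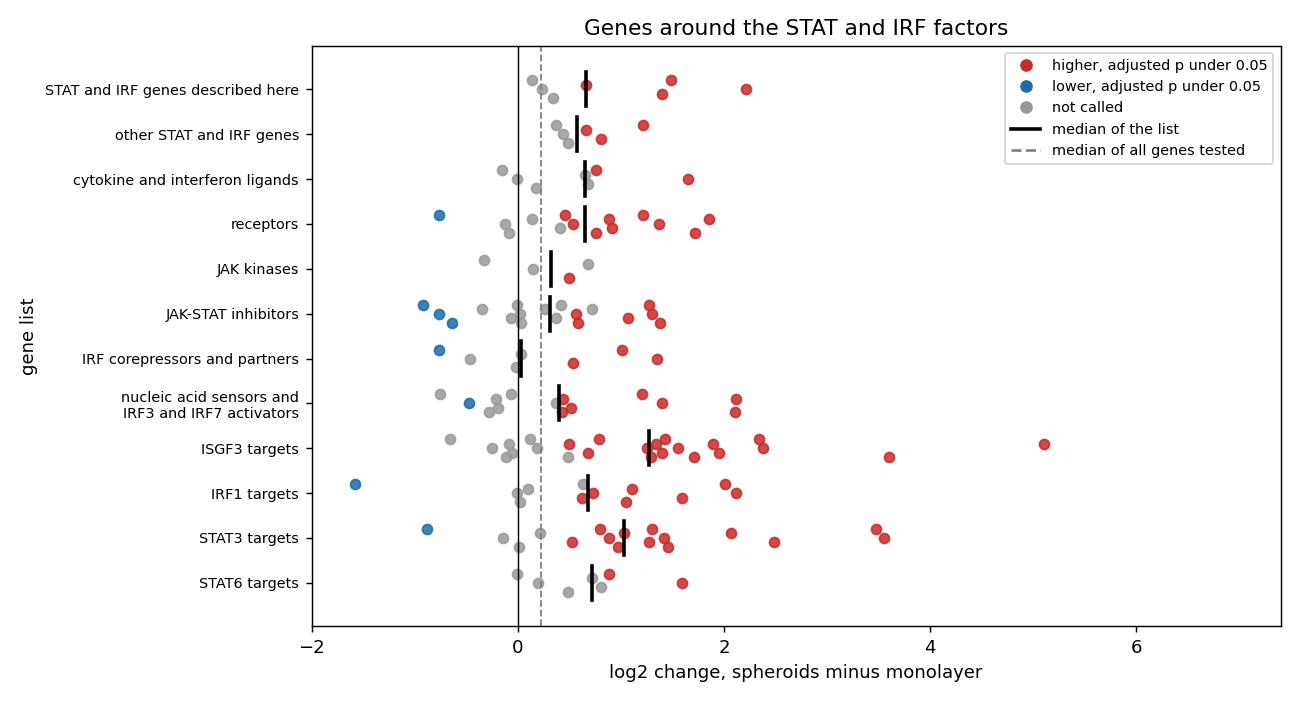
Log2 change from monolayer to spheroids of each gene tested, by list; red points were called higher, blue lower and grey not called, the black bar is the median of a list and the dashed line the median of all genes, 0.23. ISGF3 targets (median 1.27) and STAT3 targets (1.03) lie furthest to the right.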

How the data were processed

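The deposited table holds intensities on a linear scale, 1 MAS5 signal for each probe set and array, per the submitters' processing notes; no version or settings are stated there. The arrays share a trimmed mean (2% of values left out at each end). Of 54613 probe sets that are not controls, 41091 had 1 symbol in the platform annotation, 1801 several and 11721 none; symbols were updated through RefSeq gene identifiers. The pseudocount of 14 was set at the lower quartile (25th percentile) of the signals, so fold changes of dim genes are understated. A mean log2 value above 5.48, the 40th percentile, was required, which left 32768 probe sets. Each gene took its brightest probe set, giving 14349 genes. limma 3.58.1 in R 4.3.3 was fitted with culture and cell line and a trended moderation, with 1 residual and 25.9 prior degrees of freedom, and was tested on simulated data. The lines come from the labels; their difference in monolayers correlated with that in spheroids at 0.00684 over genes. Nothing states separate cultures, so the p-values do not measure a spread between cultures. They rest mainly on the disagreement between the 2 lines over genes of like brightness, and little on that of the gene itself. This disagreement may be technical, and 4 arrays limit the precision.

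All members were named. In each list up to 4 genes with the largest change were named, with JAK1, JAK2, TYK2, SOCS1, SOCS3 and the other STAT and IRF genes. Members and lists were chosen with earlier results of these data known. Alternatives were other scalings, pseudocounts, filters, probe set rules and moderation, no cell line term, and leaving out each array. The fits that left out an array had no cell line term either.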

Additional observations from a re-analysis of the deposited data

Results flagged for a closer look

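Among the 12 STAT and IRF probe sets and the pathway genes taken by the naming rule, the change from monolayer to spheroids had opposite signs in the 2 lines in 5. Over all 126 pathway genes tested it did so in 24; the difference between the lines was not tested. The dim STAT3 probe set 243213_at had a log2 change of -0.49 for wt but 0.037 for wt/GFP. The STAT6 probe set 201332_s_at, below the filter, had -0.11 in wt and 0.27 in wt/GFP. STAT5A had -0.041 in wt and 0.78 in wt/GFP. IL22 had -0.59 in wt and 1.90 in wt/GFP, from a wt/GFP monolayer value below the filter. TYK2 had 0.35 in wt and -0.056 in wt/GFP. None of these was called.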

How the results depend on the processing

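The calls of IRF9 and STAT3 held under each of their 17 alternatives, at log2 changes of 1.63 to 2.36 and 0.88 to 1.62. IRF2 lost its call in 1 of 17 and STAT6 in 3 of 16, as given above; without probe sets shared between transcripts, STAT6 and IRF7 had no probe set left. The uncalled genes turned sign as follows: IRF1 had -0.024 with quantile normalization, -0.16 with median centring and -0.36 with the hybridisation controls as scale, IRF3 had -0.11, -0.25 and -0.45, and IRF7 had -0.050 and -0.25 under the last 2. Leaving out 1 array at a time, the fit also had no cell line term, so the difference between the lines enters the change. IRF3 then ranged from -0.10 without the wt monolayer to 0.38 without the wt/GFP monolayer. IRF7 ranged from 0.073 to 0.61 without the same 2 arrays, and IRF1 from 0.11 without wt spheroids to 0.36 without wt/GFP spheroids. These ranges therefore do not measure how stable the change within a line is. The cause of the turns in sign under the scalings was not tested. The members called higher were 2 after scaling to the hybridisation controls. Of the pathway genes, 26 were then called higher and 16 lower; 23 were lower after median centring, 14 with every probe set tested alone and 5 without a trend. All calls numbered 13137 over probe sets tested alone and 3820 without a trend, against 7050. Without the cell line block there were 6627, and no member's call changed. Higher genes were 2350 against 4641 lower after median centring and 992 against 3754 with the hybridisation controls. A stricter GAS, TTCCNGGAA, or a longer ISRE was in 4.65% of promoters, where the GAS or ISRE core was in 10.8%, and in none of the 5 given here. Dim probe sets near the filter limit what can be said of ligands.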
